A study of Bos taurus with 15 samples.

Results

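ATP5F1E, ATP5PO, ATP5MF and ATP5MK encode subunits of the mitochondrial ATP synthase, and their transcripts were followed in single bovine oocytes from dominant follicles (DF oocytes). They were taken by name, as the rows of the deposited count table whose Ensembl identifier carries one of those symbols in the study's list of genes that differed between DF oocytes and another class of oocyte. They are 4 of the 21218 genes of the table, with the identifiers ENSBTAG00000039208 (ATP5F1E), ENSBTAG00000018278 (ATP5PO), ENSBTAG00000002094 (ATP5MF) and ENSBTAG00000045783 (ATP5MK), and all 4 were among the 10198 genes that passed the filter on low counts. That list was chosen on these same oocytes against others that were not analysed here, and not on the time points compared below.

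Polyadenylated RNA was sequenced from 15 single oocytes by Smart-seq2, each oocyte from a different animal. The animals were crossbred nulliparous beef heifers, mainly Limousin and Charolais crosses, and all were synchronised with a GnRH analogue, a progesterone-releasing intravaginal device and a prostaglandin F2a analogue. The groups were 24 h before ovulation (T1, 6 oocytes), 19 to 23 h after oestrus detection (T2, 4 oocytes) and 2 h before ovulation (T3, 5 oocytes). A subgroup of the animals was given a second dose of GnRH. The methods name this subgroup beside T3, and they do not say plainly whether any T2 animal was also in it, so that T3 may differ from T2 in treatment as well as in time. They also name both groups as slaughtered on the same day of the protocol, a day after T1, so the hours between T2 and T3 are not fixed by the labels. The sample titles of T2 give its hours as before ovulation, whereas its other labels give them as after oestrus detection, which is the wording used here. The heifers belonged to more than 1 trial, and which trial gave which oocyte is not given in the sources used here, so a trial and a time point cannot be told apart. The oocytes were stripped of cumulus cells by pipetting before they were frozen.

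Tests used the 11 oocytes that the study kept after its own quality control (5 at T1, 4 at T2 and 2 at T3). The remaining 4, from T3 (T3.1, T3.3 and T3.5) and T1 (T1.4), stood apart in having 2686 to 7433 genes with a count, against 8537 to 11273 in the 11 kept. The 3 from T3 also had totals of 175263 to 620910 counts, against 824854 to 4894970 in the 11 kept, while T1.4, at 2874041, lay within that range. For the 4 subunits their levels are given below, with some of their values for other genes and ratios. Tests of all 15 oocytes stand beside some of the results, and further ones in the last section on processing. Of 15 oocyte marker genes looked for, 4 had an identifier (OOSP2, KPNA7, FIGLA and NLRP5). In the 11 kept oocytes their summed level was 3293 to 15831 counts per 1000000 of the library (CPM) at T1, 3306 to 10821 CPM at T2 and 5098 to 7217 CPM at T3. Outside the kept set OOSP2 alone had 187987 CPM in T3.1 and 30913 CPM in T3.3. The 4 markers did not move as one: FIGLA had log2 fold changes of -2.75 at T2 against T1 (unadjusted p = 0.0152, adjusted p = 0.260) and 3.00 at T3 against T2 (unadjusted p = 0.0191, adjusted p = 0.197) in edgeR's quasi-likelihood test, while those of OOSP2, NLRP5 and KPNA7 lay between -1.49 and 0.49 and none had an unadjusted p under 0.05. None of 16 cumulus and granulosa genes and none of 7 erythrocyte genes had an identifier, and of 10 leukocyte genes only SRGN had one. In the kept oocytes SRGN had 13.1 to 1100 CPM at T1, 8.40 to 607 CPM at T2 and 1.53 to 115 CPM at T3, highest in T1.1. With so few identifiers, the share of RNA from other cells was not tested.

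The ATP synthase, complex V of oxidative phosphorylation, makes ATP from the proton gradient across the inner mitochondrial membrane. Its catalytic F1 head projects into the matrix, its Fo sector sits in the membrane, and a rotating central stalk and a fixed peripheral stalk join them. ATP5F1E is the epsilon subunit of the central stalk, ATP5PO is the oligomycin sensitivity-conferring protein (OSCP) that joins the peripheral stalk to the head, ATP5MF is subunit f of the membrane sector, and ATP5MK (DAPIT) is a small membrane subunit linked to the pairing of ATP synthases. Oocytes hold large numbers of mitochondria, and the ATP they make is used during meiotic maturation. In the fully grown oocyte little is transcribed, and stored mRNAs can gain or lose poly(A) tail. Since the libraries captured RNA by its tail, and since total RNA per oocyte was not measured, fewer transcripts, shorter tails and a change in the remaining RNA cannot be told apart in what follows.

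In the 11 kept oocytes, transcripts of all 4 subunits were lower at T2 than at T1 and higher at T3 than at T2 in their means. No subunit passed the adjusted threshold of edgeR's quasi-likelihood test in any of the 3 comparisons. ATP5F1E was the only one of the 4 whose T2 oocytes all lay below every T1 oocyte, and 4.25% of all genes had T1 and T2 groups that did not overlap, in either direction. At T3 the kept oocytes lay above every T2 oocyte for all 4, which held for 16.3% of all genes. CPM are not corrected for transcript length, so levels are compared below between oocytes and not between genes.

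For ATP5F1E, the epsilon subunit, the kept T1 oocytes had 325 CPM (T1.1), 955 CPM (T1.2), 368 CPM (T1.3), 717 CPM (T1.5) and 234 CPM (T1.6). The T2 oocytes had 20.5 CPM (T2.1), 153 CPM (T2.2), 169 CPM (T2.3) and 157 CPM (T2.4), and the kept T3 oocytes 564 CPM (T3.2) and 1066 CPM (T3.4). Thus 3 of the 4 T2 oocytes lay close together, T2.1 lay far below them with 22 counts, and neither T1 nor T3 overlapped with T2. T1.4 had 1098 CPM, the highest of all 15, while the 3 of T3 had 41.9 CPM (T3.1), 206 CPM (T3.3) and 314 CPM (T3.5), so that with all 15 oocytes T3 reached down into the range of T2.

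ATP5PO, the OSCP, had 1113 CPM in T1.1, 5166 CPM in T1.2, 419 CPM in T1.3, 3453 CPM in T1.5 and 853 CPM in T1.6. It had 227 CPM in T2.1, 949 CPM in T2.2, 428 CPM in T2.3 and 477 CPM in T2.4, and 2260 and 2287 CPM in T3.2 and T3.4. T1 ranged 12.3-fold from its lowest to its highest oocyte, with T1.3 below 3 of the 4 T2 oocytes, whereas the kept T3 oocytes differed 1.01-fold. Outside the kept set, T1.4 had 3825 CPM, T3.3 2318 CPM and T3.5 3572 CPM, all above every T2 oocyte, and T3.1 had 261 CPM.

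ATP5MF, subunit f, had 115, 644, 172, 312 and 142 CPM in T1.1, T1.2, T1.3, T1.5 and T1.6. The T2 oocytes had 0.934, 41.7, 82.1 and 119 CPM in the order T2.1 to T2.4, and T3.2 and T3.4 had 382 and 753 CPM. T2.1 held a single ATP5MF read, for which the exact Poisson interval is 0.0236 to 5.20 CPM (95%, counting error only). In CPM T2.4 lay just above T1.1, so that T1 and T2 overlapped. On the log2 CPM scale with TMM factors used below, T2.4 (6.81) lay above T1.6 (6.77) instead, and the groups overlapped there too. The oocytes outside the kept set had 276 CPM (T1.4), 205 CPM (T3.5), 95.7 CPM (T3.3) and 58.0 CPM (T3.1).

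ATP5MK had 172, 272, 35.5, 215 and 38.8 CPM in T1.1, T1.2, T1.3, T1.5 and T1.6. It had 16.8, 61.7, 65.2 and 93.7 CPM in T2.1 to T2.4, and 97.4 and 205 CPM in T3.2 and T3.4. Within T1 it formed a higher trio and a lower pair, and the pair, T1.3 and T1.6, lay below 3 of the 4 T2 oocytes. T1.4 had 416 CPM, the highest of all 15, T3.3 had 110 CPM and T3.5 126 CPM, and T3.1 had 0 counts, which at its depth allows up to 4.83 CPM at a floor of 3 counts and 5.94 CPM by the exact Poisson interval used for ATP5MF in T2.1.

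**Figure D1:**
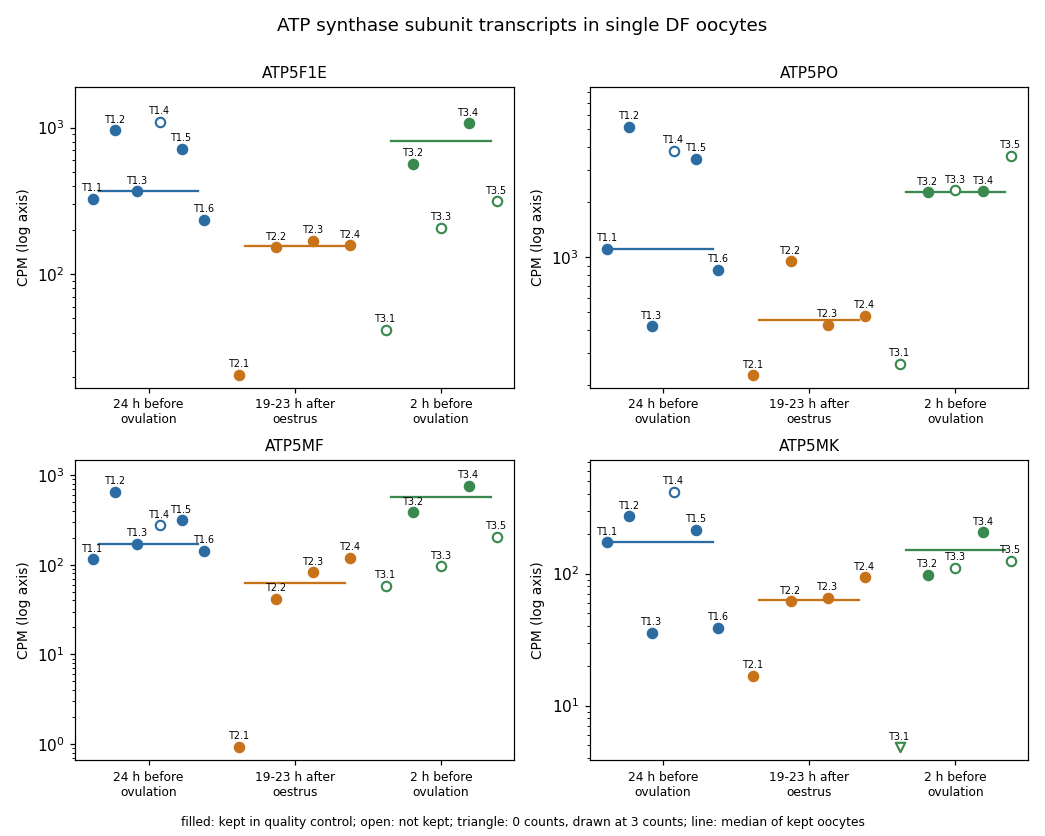
CPM (log axis) of the 4 ATP synthase subunits in each of 15 DF oocytes by time point; filled points are the 11 oocytes kept in quality control, open points the other 4, lines the medians of the kept oocytes, and the triangle an oocyte with 0 counts drawn at 3 counts. T2.1 is the lowest of the kept oocytes in every panel, and the kept T3 oocytes (ATP5F1E at 564 and 1066 CPM) lie above all T2 oocytes.

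Added together, reads of the 4 subunits made up 0.0994 to 0.704% of all counts in the kept T1 oocytes, 0.0265 to 0.120% in T2 and 0.330 to 0.431% in T3. T1.2 and T1.5 had the largest shares of T1, at 0.704% and 0.470%, and T1.3 and T1.6 the smallest, at 0.0994% and 0.127%. T1.3 lay within the range of T2, and T1.6 just above its highest oocyte, T2.2, at 0.120%. Hence T1 held the largest share of the kept oocytes and also reached down into the range of T2. Its overlap with T2 came from the same oocytes for ATP5PO (T1.3 and T1.6) and ATP5MK (T1.3 and T1.6). Outside the kept set T1.4 had 0.561%, T3.5 0.422%, T3.3 0.273% and T3.1 0.0361%.

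The first comparison asks what differed between oocytes at 19 to 23 h after oestrus detection and those at 24 h before ovulation. On a log2 CPM scale (prior count of 2, TMM factors), mean ATP5F1E was 6.49 ± 1.46 (SD, n = 4) at T2 and 8.83 ± 1.19 (SD, n = 5) at T1. The difference of -2.35 had an exact permutation p of 0.0159 (two-sided), where the smallest p that 4 against 5 oocytes allow is 0.00794. ATP5MF was 4.78 ± 2.76 at T2 and 7.82 ± 1.32 at T1, a difference of -3.04 (exact permutation p = 0.0159). That of ATP5MF rested on T2.1, without which it was -1.59 (exact permutation p = 0.107), and that of ATP5F1E was then -1.52 (exact permutation p = 0.0536). ATP5PO was 8.73 ± 0.85 and 10.54 ± 1.86 (difference -1.81, exact permutation p = 0.127), and ATP5MK 5.57 ± 1.06 and 6.76 ± 1.78 (difference -1.19, exact permutation p = 0.262), both within the spread between oocytes. These are 4 of 12 such tests, with no adjustment, and the adjusted values come from the fit across all genes.

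In that fit, the log2 fold change at T2 against T1 was -2.37 (SE 0.69) for ATP5F1E, 5.17-fold lower, with an adjusted p of 0.156 in edgeR's quasi-likelihood test. It was -2.49 (SE 0.80, adjusted p = 0.186) for ATP5PO, -2.53 (SE 0.90, adjusted p = 0.239) for ATP5MF and -1.67 (SE 0.74, adjusted p = 0.373) for ATP5MK. T1.2, the highest kept T1 oocyte for all 4, weighed most: without it the fold changes were -1.69, -1.52, -1.54 and -1.05 in the same order, with edgeR adjusted p between 0.400 and 0.717. Called lower (adjusted p under 0.05 and a log2 fold change of at least 1.5) were 0 of the 4 subunits, and of all genes tested 0%. The count over all genes depended on 1 oocyte, being 376 (in either direction) without T1.1, with 0 of the 4 subunits among them. At an unadjusted p under 0.05 all 4 were lower, against 9.41% of genes. The likelihood ratio test of edgeR called 2 of the 4, ATP5F1E (adjusted p = 0.0266) and ATP5PO (adjusted p = 0.0438), against 3.29% of genes called lower, and DESeq2 called the same pair (adjusted p = 0.0155 and 0.0287), against 4.82%. Groups that did not overlap, in either direction, were found for 1 of the 4 (ATP5F1E) and for 4.25% of genes. The median log2 fold change was -2.43 over the 4 subunits and -0.20 over all genes tested.

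The second comparison, of T3 with T2, sets side by side the groups as labelled, both of the same slaughter day. ATP5F1E was 9.82 ± 0.62 log2 CPM (SD, n = 2) at T3, 3.34 above T2, and ATP5PO was 11.37 ± 0.02, 2.64 above T2 (exact permutation p = 0.0667 for each, two-sided). ATP5MF was 9.29 ± 0.66, 4.52 above T2, and ATP5MK was 7.37 ± 0.72, 1.80 above T2 (exact permutation p = 0.133 for each). With 2 oocytes against 4 no p below 0.0667 is possible, so this test could not reach 0.05.

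The fit across all genes gave log2 fold changes at T3 against T2 of 3.03 (SE 0.80, adjusted p = 0.0785) for ATP5F1E, 2.46 (SE 0.92, adjusted p = 0.189) for ATP5PO, 3.54 (SE 1.04, adjusted p = 0.0958) for ATP5MF and 1.66 (SE 0.88, adjusted p = 0.350) for ATP5MK in edgeR's quasi-likelihood test. These correspond to 8.17-fold, 5.49-fold, 11.6-fold and 3.17-fold. With 1 oocyte left out they ran on the log2 scale from 2.44 to 3.27 for ATP5F1E, from 2.1 (without T2.1) to 2.93 for ATP5PO, from 2.91 to 4.10 for ATP5MF and from 0.98 to 1.98 for ATP5MK, with the lowest value of ATP5F1E, ATP5MF and ATP5MK without T3.4. Called higher were 0 of the 4 and 0% of all genes, and at an unadjusted p under 0.05 3 of the 4, all but ATP5MK, against 9.03%. Here too the count over all genes, in either direction, went from 0 to 316 without T1.1, 403 without T1.2 and 94 without T3.2, and it included a pair of the subunits, ATP5F1E and ATP5MF, without T1.2 and none without the others. The likelihood ratio test called ATP5F1E (adjusted p = 0.00754) and ATP5MF (adjusted p = 0.0152), 2 of the 4 against 4.21% of genes called higher, and DESeq2 called the same pair (adjusted p = 0.0115 and 0.0250), against 4.26%. All 4 had T3 oocytes above every T2 oocyte, which 16.3% of genes also had. The median was 2.74 over the 4 subunits and -0.10 over all genes.

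With all 15 oocytes in the fit, the log2 fold changes at T3 against T2 were 2.08 (adjusted p = 0.297), 2.26 (adjusted p = 0.242), 2.56 (adjusted p = 0.256) and 1.11 (adjusted p = 0.702) for ATP5F1E, ATP5PO, ATP5MF and ATP5MK, smaller than with the kept oocytes for each. The differences in mean log2 CPM were then 1.79 for ATP5F1E (exact permutation p = 0.159), 2.09 for ATP5PO (exact permutation p = 0.0556), 3.00 for ATP5MF (exact permutation p = 0.0476) and 0.15 for ATP5MK (exact permutation p = 0.984), with 5 against 4 oocytes. At T2 against T1 the corresponding fold changes were -2.61 (adjusted p = 0.320), -2.58 (adjusted p = 0.293), -2.48 (adjusted p = 0.454) and -2.04 (adjusted p = 0.802), all from edgeR's quasi-likelihood test.

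At T3 against T1 the 4 subunits had log2 fold changes of 0.66 (SE 0.77), -0.03 (SE 0.93), 1.00 (SE 0.98) and -0.01 (SE 0.88) for ATP5F1E, ATP5PO, ATP5MF and ATP5MK, with adjusted p between 0.841 and 1.00 in edgeR's quasi-likelihood test. Each was close to or within its standard error, and exact permutation p-values of the mean differences lay between 0.286 and 0.857, where 2 against 5 oocytes allow 0.0476 at the smallest. Called in either direction were 0 of the 4 against 0% of genes, and at an unadjusted p under 0.05 0 of the 4 against 9.09%. The likelihood ratio test and DESeq2 also called 0 of the 4, against 1.36% and 3.13% of genes. The kept T3 oocytes lay within or above the range of T1 for all 4, and the standard errors leave a difference in either direction possible. With all 15 oocytes the fold change of ATP5F1E was -0.53 (adjusted p = 0.874, edgeR), and the differences in mean log2 CPM turned to -0.82 for ATP5F1E, -0.10 for ATP5MF and -1.42 for ATP5MK (exact permutation p between 0.387 and 0.896). T2 entered both comparisons above, so the lower level in one and the higher level in the other share the same 4 oocytes and are not separate evidence.

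**Figure D2:**
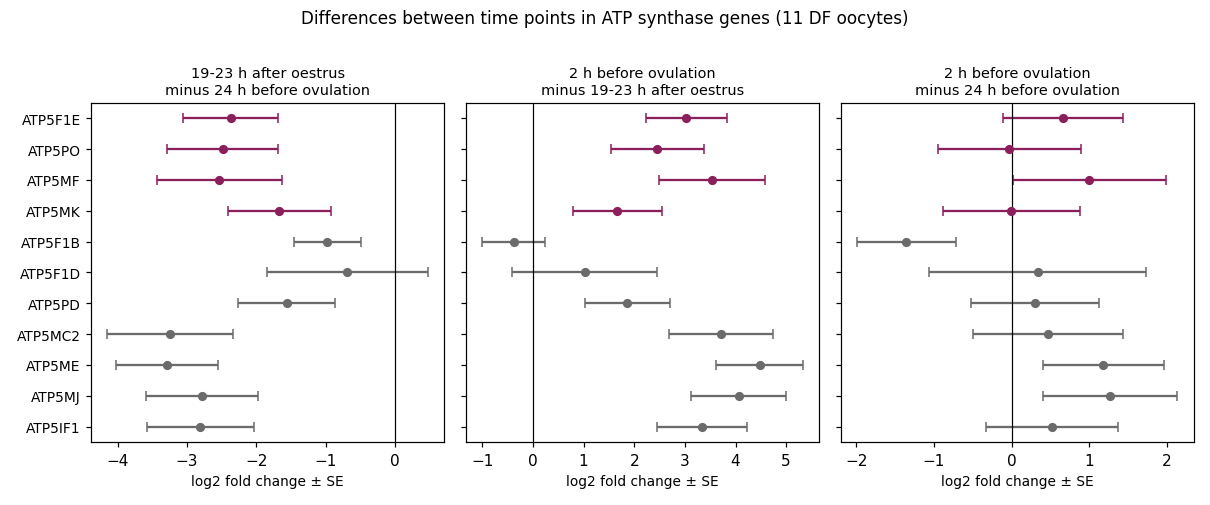
Log2 fold changes with standard errors from edgeR's quasi-likelihood fit to 11 DF oocytes, for the 4 ATP synthase subunits (purple) and for 6 other subunits and the inhibitor ATP5IF1 (grey), in 3 comparisons of time points. The purple points lie between -2.53 and -1.67 in the first panel and between 1.66 and 3.54 in the second, while ATP5F1B in grey lies at -0.97 and -0.38.

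Of 16 further genes of ATP synthase subunits, 6 had an identifier and all 6 were tested. Identifiers came only from the study's list of genes that differed between DF oocytes and another class of oocyte. The 6 were thus selected on these same oocytes, unlike the genes tested as a whole, and need not stand for the rest. All 6 had negative log2 fold changes at T2 against T1 (median -2.17), 4 of them at an unadjusted p under 0.05, and 5 had positive ones at T3 against T2 (median 2.79), 4 of them at an unadjusted p under 0.05. Of all 10198 genes tested, 5944 had negative fold changes at T2 against T1, 960 of them at an unadjusted p under 0.05, and 4770 had positive ones at T3 against T2, 921 of them at that p. None of the 6 passed the adjusted threshold in edgeR's quasi-likelihood test. The likelihood ratio test called 3 of the 6, ATP5ME, ATP5MJ and ATP5MC2, lower at T2 against T1 and higher at T3 against T2. DESeq2 called ATP5ME and ATP5MJ in both and gave ATP5MC2 no adjusted p. The shares of all genes called were 3.29% and 4.82% lower in the first comparison and 4.21% and 4.26% higher in the second. ATP5ME, subunit e of the membrane sector, had the largest differences of the 6: it had 88.1 to 751 CPM in the kept T1 oocytes, 19.6 to 66.8 CPM in T2 and 391 and 1175 CPM in T3. Its log2 fold changes were -3.29 (SE 0.74, adjusted p = 0.132) and 4.47 (SE 0.85, adjusted p = 0.0536, edgeR). In the kept oocytes neither T1 nor T3 overlapped with T2. Outside the kept set ATP5ME had 678 CPM in T1.4, 434 CPM in T3.3 and 1849 CPM in T3.5, while T3.1, at 12.9 CPM, lay below every T2 oocyte. ATP5MJ, a small subunit of the membrane sector, had -2.79 (adjusted p = 0.156) and 4.06 (adjusted p = 0.0635), and ATP5MC2, 1 of the genes for the rotating c ring, -3.25 (adjusted p = 0.150) and 3.72 (adjusted p = 0.0859). ATP5PD, subunit d of the peripheral stalk, had -1.56 (adjusted p = 0.376) and 1.87 (adjusted p = 0.264), close to those of ATP5MK.

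Besides ATP5F1E, the subunits of the F1 head and central stalk with an identifier were ATP5F1B and ATP5F1D. ATP5F1B, the catalytic beta subunit, had 47.0 to 177 CPM in the kept T1 oocytes, 24.5 to 67.2 CPM in T2 and 24.7 and 30.9 CPM in T3. Its log2 fold changes were -0.97 (SE 0.48, adjusted p = 0.442) at T2 against T1, -0.38 (SE 0.62, adjusted p = 0.802) at T3 against T2 and -1.36 (SE 0.64, adjusted p = 0.546) at T3 against T1. On mean log2 CPM the exact permutation p of ATP5F1B was 0.0238 at T2 against T1, where the groups overlapped. It was 0.533 at T3 against T2. At T3 against T1 it was 0.0476, the smallest possible, since both kept T3 oocytes lay below every T1 oocyte. Outside the kept set ATP5F1B had 49.1 CPM in T1.4, 153 CPM in T3.1 and 22.1 CPM in T3.3, and 0 counts in T3.5, so T3.1 lay in the upper range of T1. T2.1, the lowest of the kept oocytes for ATP5F1E, ATP5PO, ATP5MF and ATP5MK, was the highest T2 oocyte for ATP5F1B. Reads of the 4 subunits together were 7.16 to 133 times those of ATP5F1B in T1, 3.94 to 30.4 times in T2 and 134 and 139 times in the kept T3 oocytes. Outside the kept set they were 114 times in T1.4 and 124 times in T3.3, and 2.36 times in T3.1, below every T2 oocyte, while T3.5 had 0 counts of ATP5F1B. ATP5F1D, the delta subunit of the central stalk, had -0.68 (SE 1.16) and 1.02 (SE 1.44), within its standard error in both comparisons.

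ATP5IF1 encodes the inhibitor that blocks hydrolysis of ATP by the enzyme. It had 295 to 2687 CPM in the kept T1 oocytes, 49.5 to 296 CPM in T2 and 1607 and 2050 CPM in the kept T3 oocytes. Thus in CPM T1 and T2 met at 295 CPM in T1.1 and 296 CPM in T2.3, and the kept T3 oocytes lay above T2. On the log2 CPM scale with TMM factors T2 reached at most 8.09 and T1 at least 8.35, so there T1 and T2 did not overlap. Of the oocytes not kept, T3.1 at 3.22 CPM lay below every T2 oocyte and T3.3 at 287 CPM inside their range. T3.5 had 856 CPM and T1.4 2508 CPM. The log2 fold changes of ATP5IF1 were -2.81 (SE 0.77, adjusted p = 0.149) and 3.34 (SE 0.88, adjusted p = 0.0785) in edgeR's quasi-likelihood test. The likelihood ratio test (adjusted p = 0.0151 and 0.00601) and DESeq2 (adjusted p = 0.00651 and 0.00952) called it in both comparisons, beside the shares of all genes given above. Of the assembly and modifying genes, ATPAF2, which helps assemble the F1 head, had 0.16 (SE 1.11) and -0.20 (SE 1.45), and ATPSCKMT, which methylates the c subunit, had -0.91 (SE 1.27) and 0.40 (SE 1.59). ATP23 had 30.6, 22.9 and 21.8 CPM in T1.3, T1.5 and T1.6 and 4.56 to 17.2 CPM in T2, was at 0 counts in T1.1, T1.2, T3.2 and T3.4, and is given no fold. Among the oocytes not kept it was at 0 counts in T3.1 and T3.3, had 10.1 CPM in T1.4 and 422 CPM in T3.5, the highest of all 15. In the kept oocytes DESeq2 called ATP23 lower at T3 than at T1 (adjusted p = 0.0323) and than at T2 (adjusted p = 0.0416), and neither edgeR test did. The carriers and the channel that move nucleotides across the mitochondrial membranes had small or uncertain differences. SLC25A5 had 0.30 (SE 0.57) and -0.58 (SE 0.75), SLC25A6 -1.21 (SE 1.21) and 0.01 (SE 1.51), and VDAC2 0.70 (SE 0.94) and -1.97 (SE 1.35). None of these 3 had an unadjusted p under 0.05 in any comparison, and SLC25A3, the phosphate carrier, did not pass the filter on low counts. Both kept T3 oocytes lay below every T2 oocyte for VDAC2 (exact permutation p = 0.0667, the smallest possible). The same held for 1907 of the 10198 genes tested. Outside the kept set T3.3 had 118 CPM of VDAC2, above every T2 oocyte.

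Ratios between subunits within an oocyte do not depend on how libraries are scaled, and were taken from the counts with no correction for length. They are read only between oocytes. The ratio of ATP5F1E to ATP5MF was 1.48 to 2.84 in the kept T1 oocytes, 1.32 to 3.66 in T2.2, T2.3 and T2.4, and 1.47 and 1.42 in T3.2 and T3.4. In T2.1 it was 22.0, with an exact binomial interval of 3.56 to 908 that follows from the single ATP5MF read. Outside the kept set it was 3.98 in T1.4, 2.15 in T3.3, 1.53 in T3.5 and 0.722 in T3.1, and with all 15 oocytes its mean log2 difference at T3 against T1 went from -0.49 (exact permutation p = 0.143) to -0.72 (exact permutation p = 0.0498).

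The ratio of ATP5PO to ATP5MF was 2.44 to 11.1 in the kept T1 oocytes, 4.00 to 22.7 in T2.2 to T2.4, 243 in T2.1 (interval 43.2 to 9637), and 5.91 and 3.04 at T3. That of ATP5F1E to ATP5PO was 0.185 to 0.877 in T1, 0.0905 to 0.394 in T2 and 0.249 and 0.466 in T3. T1.3 had the lowest ratio of ATP5PO to ATP5MF and the highest of ATP5F1E to ATP5PO of the kept oocytes, and both ratios share its count of ATP5PO. In T3.3 and T3.5 the ratio of ATP5F1E to ATP5PO was 0.0889 and 0.0879, below both kept T3 oocytes. With all 15 oocytes its mean log2 difference at T3 against T2 went from 0.70 (exact permutation p = 0.467) to -0.29 (exact permutation p = 0.667). The ratio of ATP5PO to ATP5MF was 24.2 in T3.3, 17.4 in T3.5, 13.9 in T1.4 and 4.50 in T3.1. With all 15 oocytes its mean log2 difference at T3 against T1 went from -0.64 (exact permutation p = 0.429) to 0.10 (exact permutation p = 0.898).

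Relative to ATP5MK, mean ATP5F1E and ATP5MF were lower at T2 than at the other time points. The ratio of ATP5F1E to ATP5MK was 1.89, 3.51, 10.4, 3.34 and 6.03 in T1.1, T1.2, T1.3, T1.5 and T1.6. It was 1.22, 2.47, 2.59 and 1.68 in T2.1 to T2.4, and 5.79 and 5.21 in T3.2 and T3.4. Of the T1 oocytes only T1.1 lay within the range of T2, and T3 did not overlap with T2. The mean log2 ratio differed by -1.16 at T2 against T1 (exact permutation p = 0.0714, two-sided) and by 1.53 at T3 against T2 (exact permutation p = 0.0667, the smallest possible). Adjusted over the 18 exact permutation tests of 6 ratios in 3 comparisons, both had p = 0.429, which no other test went below, so the differences in ratio did not pass the correction. With all 15 oocytes the difference at T2 against T1 was -1.04 (exact permutation p = 0.0571). With 1 oocyte left out it ran from -0.84 (without T1.3, exact permutation p = 0.114) to -1.45 (without T1.1, the T1 oocyte inside the range of T2, exact permutation p = 0.0286), and with counts thinned to the smallest library it was -1.10 (exact permutation p = 0.0476).

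The ratio of ATP5MF to ATP5MK had the same order: 0.667 to 4.83 in T1, 0.0556 to 1.27 in T2, and 3.93 and 3.68 in T3. Its mean log2 ratio differed by -1.94 at T2 against T1 (exact permutation p = 0.0714) and by 2.80 at T3 against T2 (exact permutation p = 0.133). Without T2.1, with its single ATP5MF read, they were -1.02 (exact permutation p = 0.196) and 1.89 (exact permutation p = 0.1, the smallest that 3 oocytes against 2 allow). With or without T2.1 both kept T3 oocytes lay above every T2 oocyte. Of those not kept, T3.3 at 0.867 and T1.4 at 0.663 lay inside the range of T2, and T3.5 at 1.64 above it. T3.1 had 36 reads of ATP5MF against 0 of ATP5MK. The ratio of ATP5PO to ATP5MK, 6.47 to 22.0 in T1, 5.09 to 15.4 in T2 and 23.2 and 11.2 in T3, overlapped between all time points in the kept oocytes. Of the oocytes not kept, it was 21.0 in T3.3 and 28.5 in T3.5, above every T2 oocyte, and T3.1 had 162 reads of ATP5PO against 0 of ATP5MK. With all 15 oocytes its mean log2 difference went from 0.83 (exact permutation p = 0.267) to 1.93 (exact permutation p = 0.0556) at T3 against T2 and from 0.22 (exact permutation p = 0.714) to 1.42 (exact permutation p = 0.0563) at T3 against T1. Its SD on the log2 scale was 0.74 over the 11 oocytes, the smallest of the 6 ratios, which it no longer was over all 15. T3.3 and T3.5, outside the kept set, had ATP5F1E to ATP5MK ratios of 1.87 and 2.50, inside the range of T2. T3.1 had 26 reads of ATP5F1E and 0 of ATP5MK, a ratio whose exact binomial lower limit is 6.56, above every T2 oocyte, so the 3 lay on both sides.

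**Figure D3:**
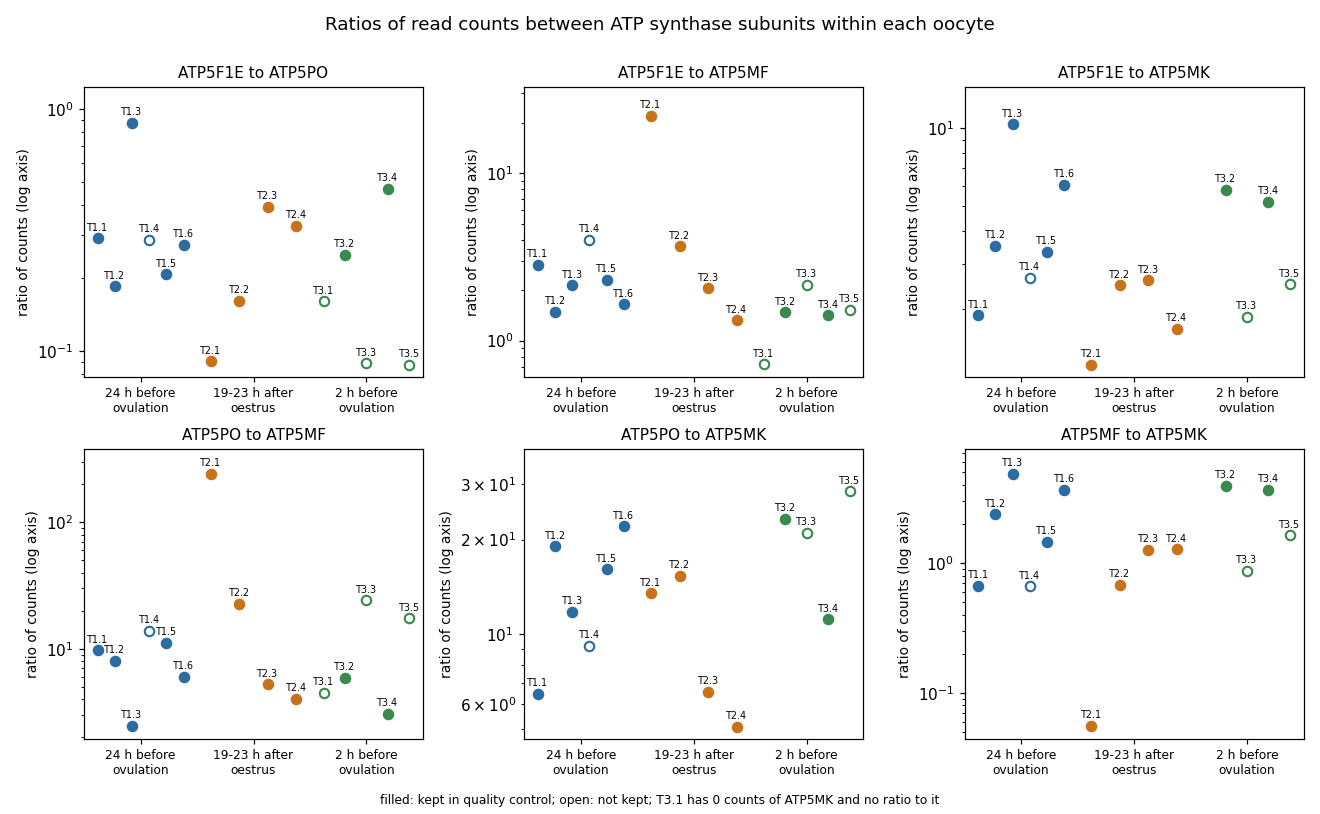
Ratios of read counts (log axis) between pairs of the 4 ATP synthase subunits in each oocyte, by time point; filled points are the 11 kept oocytes and open points the other 4. T2.1 stands apart in the panels with ATP5MF (22.0 for ATP5F1E to ATP5MF), and in that of ATP5F1E to ATP5MK the filled T3 points (5.79 and 5.21) lie above all of T2.

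The electron transport chain feeds the proton gradient that the ATP synthase uses, and 17 of 59 listed genes of its complexes I, III and IV had an identifier. The 17 come from the study's list of differing genes, so they were selected on these same oocytes, unlike the genes tested as a whole. They need not stand for the chain as a whole. All 17 had negative log2 fold changes at T2 against T1 (median -2.83), 15 of them at an unadjusted p under 0.05, and 16 had positive ones at T3 against T2 (median 3.78), 15 of them at an unadjusted p under 0.05, beside the same counts over all genes given above. None passed the adjusted threshold in edgeR's quasi-likelihood test, whereas the likelihood ratio test and DESeq2 each called 14 of the 17 lower at T2 against T1 and 15 higher at T3 against T2, beside the shares of all genes called by each that stand with the further subunits. The median log2 CPM of the 17 genes in an oocyte had means of 8.59 at T1, 6.13 at T2 and 9.87 at T3. Each subunit was set against that median in the same oocyte, which shows whether it moved more or less than these 17 genes and no others.

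Relative to the chain, ATP5F1E was 0.24 ± 0.48 (SD, n = 5) at T1, 0.35 ± 1.11 (SD, n = 4) at T2 and -0.05 ± 0.44 (SD, n = 2) at T3 on the log2 scale, and no comparison differed beyond the spread (exact permutation p between 0.524 and 0.833). ATP5PO was 1.95 ± 0.74, 2.60 ± 0.67 and 1.5 ± 0.20 at the same time points (exact permutation p between 0.133 and 0.429). ATP5MF was -0.78 ± 0.35, -1.36 ± 2.37 and -0.58 ± 0.48 (exact permutation p between 0.571 and 0.933), and without T2.1 its T2 minus T1 difference went from -0.58 to 0.58. For these 3 subunits no difference from the chain was detected at this spread and number of oocytes.

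ATP5MK differed more from the chain. It was -0.21, -2.32, -2.86, -1.66 and -2.11 relative to the chain in T1.1, T1.2, T1.3, T1.5 and T1.6. It was -1.54, -0.36, -0.17 and -0.19 in T2.1 to T2.4, and -2.89 and -2.12 in T3.2 and T3.4. Hence 3 of the 4 T2 oocytes and T1.1 lay close together, and the other kept oocytes lay lower, at -1.54 or below. The difference was 1.27 at T2 against T1 (exact permutation p = 0.0635) and -1.94 at T3 against T2 (exact permutation p = 0.0667, the smallest possible), with no adjustment over 12 such tests. With all 15 oocytes it was 1.17 at T2 against T1 (exact permutation p = 0.0714) and -2.11 at T3 against T2 (exact permutation p = 0.0238), where T3.1 entered with 0 counts. With 1 oocyte left out the first ran from 1.01 (without T1.3, exact permutation p = 0.114) to 1.67 (without T1.1, the T1 oocyte at the level of T2, exact permutation p = 0.0286). Neither difference passed 0.05 in the kept oocytes.

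**Figure D4:**
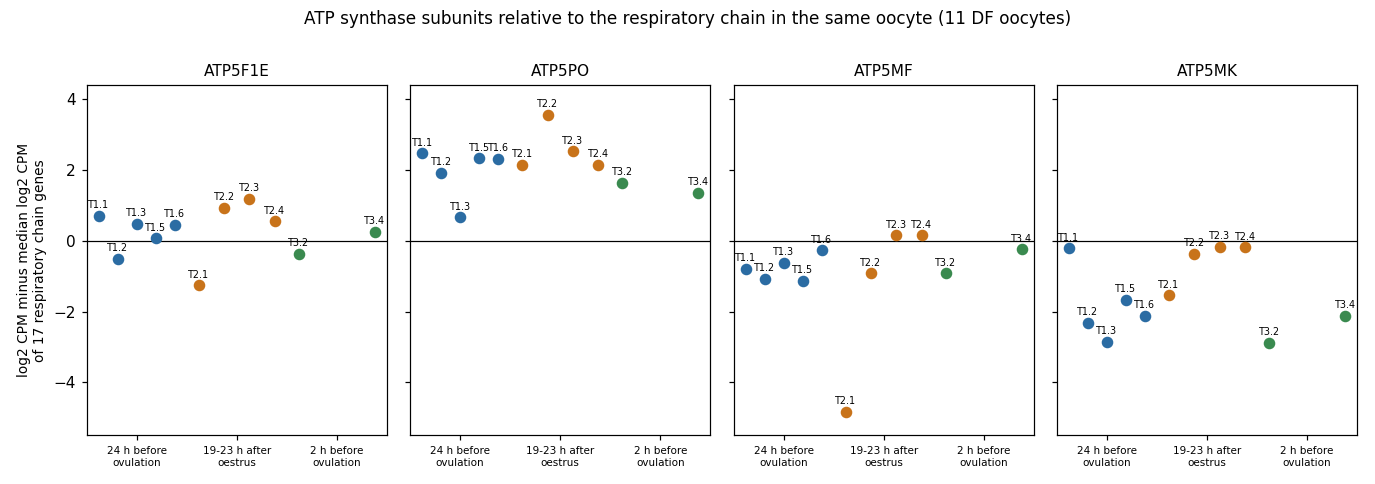
Log2 CPM of each ATP synthase subunit minus the median log2 CPM of 17 genes of respiratory complexes I, III and IV in the same oocyte, by time point, for the 11 kept DF oocytes; the line at 0 is the chain median. ATP5MK lies near 0 in T1.1 and in 3 T2 oocytes and at -1.54 or lower in the rest, and ATP5MF in T2.1 lies at -4.83.

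Between oocytes of 1 time point the subunits varied widely. The pooled SD of log2 CPM within time points was 1.25 for ATP5F1E, 1.41 for ATP5PO, 1.95 for ATP5MF and 1.44 for ATP5MK, with a median over all genes tested of 1.16. The lowest and highest of the 11 oocytes differed 51.9-fold for ATP5F1E, 22.8-fold for ATP5PO and 16.2-fold for ATP5MK, and 807-fold for ATP5MF, whose lowest value is 1 read. T2.1 was the lowest for each, so every range would be narrower without it. The next lowest were 153 CPM (ATP5F1E, T2.2), 419 CPM (ATP5PO, T1.3) and 35.5 CPM (ATP5MK, T1.3). Without T2.1 the pooled SD of ATP5MF was 1.04, the lowest of the values it took with any 1 oocyte left out. The dispersion that edgeR fits to the counts, which allows for the noise of low counts, was 0.438, 0.549, 0.694 and 0.536 in the same order. Its median over all genes was 0.695, so on that measure, unlike the pooled SD, none of the 4 lay above the median. That median covers genes of every level, and the 4 come from a list selected by a test on these same oocytes. The dispersion is therefore a description only. Differences between the time point groups made up 60.5% of the variance of log2 CPM for ATP5F1E, 52.6% for ATP5MF, 42.1% for ATP5PO and 24.1% for ATP5MK. These shares were not set against those of all genes or against the share expected with no change. A trial, which cannot be told apart from time point, may enter them.

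The 4 subunits moved together from oocyte to oocyte. Over the 11 oocytes the log2 CPM of ATP5F1E and ATP5MF had a Pearson r of 0.97 and a Spearman rho of 0.95, and their deviations from the time point means an r of 0.94, the highest of the 6 pairs. ATP5PO and ATP5MK had an r of 0.90 (rho 0.90), ATP5F1E and ATP5PO 0.88 (rho 0.82), ATP5F1E and ATP5MK 0.86 (rho 0.83), ATP5MF and ATP5MK 0.80 (rho 0.78) and ATP5PO and ATP5MF 0.79 (rho 0.76). Deviations from the time point means had an r of 0.87 for ATP5PO and ATP5MK and for ATP5F1E and ATP5MK, 0.78 for ATP5F1E and ATP5PO, 0.74 for ATP5MF and ATP5MK and 0.61 for ATP5PO and ATP5MF. With the 2 farthest oocytes left out the 6 values of r lay between 0.64 and 0.94. These are descriptions over 11 oocytes that share the groups and each oocyte's library, and carry no test. They were not set against other pairs of genes. Some genes outside the ATP synthase followed a subunit more closely than any pair here, as DSTN did ATP5PO (r = 0.99).

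Among 1663 other genes with a symbol, those most like ATP5F1E over the 11 oocytes were FAM229B (r = 0.99), MLN (r = 0.98) and HINT1 (r = 0.98). Those most like ATP5PO were DSTN, an actin-depolymerising factor (r = 0.99), RPS13, a protein of the small ribosomal subunit (r = 0.98), and COX7A2, a subunit of complex IV (r = 0.98). ATP5MF was most like ATP5F1E, MLN (r = 0.97) and TMEM160 (r = 0.97), and ATP5MK was most like ALKBH1 (r = 0.96), RPL21, a protein of the large ribosomal subunit (r = 0.95), and SUGT1 (r = 0.95). Of the other ATP synthase genes, ATP5PD had an r of 0.91 to 0.93 with the 4 subunits and ATP5IF1 one of 0.77 to 0.97, while the catalytic ATP5F1B had an r of -0.20 to -0.06.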

How the data were processed

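Raw read counts per Ensembl gene, made by the authors in SeqMonk after trimming (Trim Galore) and alignment to the bovine build ARS-UCD1.2 (HISAT2), were deposited for 15 oocytes, without molecular identifiers, so intervals and floors (3 counts) cover counting error only. Strand setting, duplicate removal and annotation release are not given in the sources used here. Symbols came from the study's list of differing genes (1741 symbols). Counts were tested in R 4.3.3 with edgeR 4.0.16 (filterByExpr, TMM, quasi-likelihood F-test, 3 time points in 1 fit, 11 oocytes, Benjamini-Hochberg over 10198 genes), calling adjusted p under 0.05 with an absolute log2 fold change of 1.5. DESeq2 1.42.0 and edgeR's likelihood ratio test were alternatives. Standard errors follow from the F statistic. Single values were tested by exact permutation, two-sided. Log2 CPM used a prior count of 2 and log2 ratios 0.5. Genes named are the 4 subunits, the listed ATP synthase, assembly and transport genes with an identifier, the 3 genes most alike to each subunit, and markers. The members and lists were chosen with earlier results of these data known. Methods were tested on simulated data. There a high share of changed genes had to be called only at a dispersion below that of these data (common dispersion 0.773). How often the quasi-likelihood test would call a real change in these data is therefore not given here. No sequence or coordinate is given, since no genome of this build was used here.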

Additional observations from a re-analysis of the deposited data

Results flagged for a closer look

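ATP5F1E in T2.1 was 4.31 log2 CPM, far below the next T2 oocyte at 7.16: the gap was 0.963 of the range of the 4 T2 oocytes. ATP5MK relative to the respiratory chain genes was also lowest in T2.1 among the T2 oocytes, at -1.54 against -0.36 in the next, a gap of 0.858 of the range. These were 2 of 28 groups of oocytes examined, and chance marks about 1 in 20. T2.1 had 1071109 counts, the fewest of T2, and 9736 genes with a count, against 10336 to 11139 in the other T2 oocytes, and the part of depth in its values was not tested.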

How the results depend on the processing

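Of 1056 values recomputed under other settings, 963 kept their direction and their side of the threshold, and for the others the cause was not tested. At T2 against T1 the number of the 4 subunits called was 2 with the likelihood ratio test and with DESeq2, and 1 with no filter on low counts. It was also 1 with at least 10 counts required in every oocyte. ATP5MF, with 1 read in T2.1, does not meet that requirement and was not tested under it. Over all genes, in either direction, these settings called 361, 466, 234 and 158. At T3 against T2 the number called was 2 with the likelihood ratio test, with DESeq2 and with no filter. It was 1 with at least 10 counts, where ATP5MF was again not tested, and 0 to 2 with 1 oocyte of T1 or T2 left out (2 without T1.2). Over all genes these called 701, 893, 371 and 214, and 403 without T1.2. RLE or upper-quartile factors and all 15 oocytes called 0 of the 4 subunits in each comparison, while over all genes RLE factors called 17 at T3 against T2.

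Most reversals were of T3 against T1. With all 15 oocytes the log2 fold change of ATP5F1E there was -0.53, and the differences in mean log2 CPM were -0.82 for ATP5F1E, -0.10 for ATP5MF and -1.42 for ATP5MK. The fold change of ATP5MK was 0.0073 with DESeq2, 0.0061 with RLE factors, 0.0010 with upper-quartile factors and 0.0026 with no filter, and with 1 oocyte left out it ran from -0.56 to 0.51, and that of ATP5PO from -0.28 to 0.83. Also with all 15, ATP5PO relative to the chain was 0.48, the log2 ratio of ATP5F1E to ATP5PO -0.82, that of ATP5PO to ATP5MF 0.10, and that of ATP5F1E to ATP5MF -0.72 (exact permutation p = 0.0498). With 1 left out, the log2 ratio of ATP5F1E to ATP5PO ran from -0.30 to 0.60, that of ATP5PO to ATP5MK from -0.31 to 0.75, ATP5F1E relative to the chain from -0.60 to 0.018 and ATP5MF relative to the chain from -0.15 to 0.53.

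At T3 against T2 with all 15 oocytes the difference in mean log2 CPM of ATP5MF was 3.00, ATP5MK relative to the chain -2.11 and the log2 ratio of ATP5F1E to ATP5PO -0.29. ATP5MF relative to the chain ran from -0.38 (without T2.1) to 1.29 with 1 left out. With the mean in place of the median of the chain genes, ATP5F1E was -0.24 at T2 against T1 and 0.021 at T3 against T2.

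At T2 against T1, with 1 oocyte left out, the difference in mean log2 CPM ran from -2.69 to -1.52 for ATP5F1E, where p rose above 0.05 without T2.1, and from -3.72 to -1.59 for ATP5MF, where it did so without T1.1, T1.2, T1.5 or T2.1. Relative to the chain, ATP5F1E ran from -0.17 to 0.65, ATP5MF from -1.09 to 0.58 and ATP5MK from 1.01 to 1.67. The log2 ratio of ATP5F1E to ATP5MK ran from -1.45 to -0.84 and was -1.10 with counts thinned to the smallest library, and that of ATP5MF to ATP5MK ran from -2.35 (without T1.1, exact permutation p = 0.0286) to -1.02 (without T2.1, exact permutation p = 0.196). The pooled SD of ATP5MF ran from 1.04 to 2.06, and that of ATP5MK was 2.26 with all 15 oocytes. Leaving out oocytes for the pooled SD was chosen after seeing the data.

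Replicate numbers only number different animals: deviations of same-numbered oocytes from their time point means correlated at -0.02 to 0.14 (6 pairs) and those of other pairs at -0.13 to 0.07 (32 pairs). With the replicate block 0 of the 4 subunits were called in each comparison, and over all genes 0 were called at T2 against T1, 0 at T3 against T1 and 1 at T3 against T2, so its counts say little about the subunits, and at T3 against T1 the log2 fold changes were -0.45 for ATP5F1E and -0.78 for ATP5MF. Leaving out a kept T3 oocyte leaves 1, which is then assumed to vary like the other groups. T2.1 had 22 counts or fewer of ATP5F1E, ATP5MF and ATP5MK, so its levels rest on few reads.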
